A study of Mus musculus with 20 samples.

Results

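The genes described here are 43 genes of DNA repair and DNA damage signalling, Parp1 among them, in LSK cells (Lin-Sca1+Kit+, the compartment of hematopoietic stem and multipotent progenitor cells) and in MEP (megakaryocyte-erythroid progenitors) of mouse bone marrow. They were chosen by gene symbol, with a mean of at least 1 FPKM, the fragments counted for a gene relative to the length of its transcript and to all mapped fragments of the library, over the 10 libraries of a cell type. All 43 genes passed this limit in both cell types, out of 24315 genes in each table, of which 11952 passed it in LSK and 10933 in MEP. Polyadenylated RNA of sorted cells was sequenced from C57BL/6 mice of 4 genotypes, with LSK and MEP taken from the same mice. There were 3 wild type (WT), 2 Bcor-/-, 3 Dnmt3a-/- and 2 Bcor-/-Dnmt3a-/- (double knockout) libraries per cell type. The label of Bcor-/- replicate 1 names 2 mice, so this library is a pool, and each other library names its own mouse. Bcor, a corepressor of the Polycomb family, and Dnmt3a, a DNA methyltransferase, were both conditional alleles, deleted by Mx1-Cre, an interferon-inducible recombinase that acts in blood cells and in other tissues that respond to interferon. The study describes its WT controls as mice with untargeted genes, and induced the Cre by pIpC. The descriptions of all mutant libraries hold the tag Cre, whereas those of WT do not and otherwise read like those of Dnmt3a-/-. The labels do not say whether WT mice carried Cre or received pIpC. If they lacked Cre, its effect cannot be told apart from that of the mutant genotypes. The study describes the Mx1-Cre deletion of Dnmt3a as incomplete in Dnmt3a-/- mice and in preleukemic double knockouts, and as complete in leukemic double knockouts, and names the double knockouts of its RNA comparison as leukemic, whereas the labels give neither a disease stage nor an age.

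Cells repair damaged bases and single-strand breaks by base excision repair, bulky adducts by nucleotide excision repair, replication errors by mismatch repair and double-strand breaks by homologous recombination or by end joining. Parp1 senses strand breaks, modifies itself and neighbouring proteins with ADP-ribose chains and so recruits the scaffold Xrcc1 and its ligase Lig3. The kinases Atm and Atr and their targets Chek2 and Chek1 halt the cell cycle while breaks are repaired, and end joining also closes the breaks that developing lymphocytes make in their antigen receptor genes. Stem cells of the blood are known to depend on several of these pathways, with loss of the Fanconi anemia genes leading to marrow failure.

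The libraries labelled Bcor-/-Dnmt3a-/- stood apart from the others and from each other. Over all genes tested, the log2 values of the pair correlated with r = 0.849 in LSK and 0.815 in MEP, whereas every pair of the other genotypes reached at least 0.971. Over the 43 repair genes, the median absolute difference of this pair was 0.45 on the log2 scale in LSK and 0.48 in MEP, whereas pairs within the other genotypes ranged from 0.10 to 0.15 in LSK and from 0.06 to 0.20 in MEP. Of 9 markers of the LSK compartment, 7 lay below WT in both libraries of the LSK pair. The exceptions were Ly6a, which encodes the Sca1 of the sort and had 63.5 and 220.2 FPKM against 59.8 to 70.7 in WT, and Slamf1, with 3.69 and 2.14 against 2.43 to 3.94. Among the low ones, Cd34 had 5.87 and 37.3 FPKM in Bcor-/-Dnmt3a-/- replicates 1 and 2, against 548 to 650 in WT, and Procr had 0.76 and 5.21 against 17.2 to 37.6. In MEP, 7 markers of that compartment summed to 287 and 766 FPKM in Bcor-/-Dnmt3a-/- replicates 1 and 2, against 616 to 695 in WT. Among them Gata1 had 71.4 and 239 FPKM against 170 to 225. Kit, a marker of the sort, had 38.1 and 20.25 FPKM against 77.0 to 83.5, and was the 1 MEP marker below WT in both replicates. Cd36, with 28.1 and 86.5 against 3.22 to 5.90, was the 1 above WT in both. The summed FPKM of 11 erythroid markers was 6924 and 24470 in the LSK pair, against 419 to 541 in WT LSK, and in MEP it was 5151 and 100500 against 2172 to 3343. Of these markers 10 lay above every WT library in the LSK pair, but only 5 in the MEP pair. In MEP replicate 1, Car2 had 889 FPKM against 1333 to 1928 in WT, and Ermap 93.6 against 225 to 281. The summed FPKM of 8 B cell markers was 3476 and 1122 in LSK, against 43.3 to 101.8 in WT, and 2842 and 121.8 in MEP, against 31.2 to 176.8 in WT. The pre-B cell receptor chains Vpreb1 and Igll1 had 878 and 996.5 FPKM in LSK replicate 1, and 1.88 and 1.60 in replicate 2. The summed FPKM of 11 granulocyte and monocyte markers was 6697 and 14740 in the MEP pair, against 318 to 786 in WT, and in Bcor-/- LSK it was 18550 and 26460 against 3684 to 13270, a range that held the double knockout LSK pair with 8148 and 8474. In the MEP pair 6 of these 11 markers lay above every WT library, whereas Mpo, with 55.1 and 120.7 FPKM against 10.8 to 96.1, did not. The summed FPKM of 10 megakaryocyte markers was 19.0 and 74.5 in the LSK pair against 167 to 206 in WT, and 23.0 and 79.9 in the MEP pair against 93.6 to 363. Of 6 T and NK cell markers, 5 lay above every WT library in the pair of either cell type. Some of these differences move with the genotype, whereas others separate the Bcor-/-Dnmt3a-/- replicates from each other. Their part in the results on repair genes was not tested. FPKM do not hold the read depth, so that it was estimated from the most common ratio of the steps between values under 0.2 FPKM. Relative to WT replicate 1, this gave 0.79 to 1.32 for the LSK and 1 to 1.61 for the MEP libraries. Such an estimate includes any scaling between libraries. In Bcor-/-Dnmt3a-/- replicate 1 of LSK the most common ratio covered a share of only 0.151 of the values used. The deletion of a few Bcor exons could not be checked in a value per gene: Bcor had 24.0 and 37.4 FPKM in Bcor-/-Dnmt3a-/- LSK, 22.4 and 23.2 in Bcor-/- LSK and 29.5 to 32.4 in WT LSK. Dnmt3a had 10.4 and 10.9 FPKM in Bcor-/-Dnmt3a-/- LSK against 16.1 to 19.9 in WT, whereas in MEP it had 6.85 and 3.43 against 5.49 to 6.64. MEP replicate 1 labelled Bcor-/-Dnmt3a-/- was thus not below WT for Dnmt3a. The libraries labelled Dnmt3a-/- had 16.9, 14.0 and 11.3 FPKM of Dnmt3a in LSK, with replicate 1 inside the WT range, and 5.40, 2.97 and 2.56 in MEP. The genotypes are used here as labelled.

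In WT cells the repair genes covered a wide range of RNA levels. In LSK the highest WT means were those of Ddb1 with 161 FPKM, the adaptor of the CUL4 ubiquitin ligases that also binds ultraviolet lesions with Ddb2, of the abasic site endonuclease Apex1 with 121.8, and of Parp1 with 115 ± 5.34 (SD, n = 3). In MEP the highest were Ddb1 with 274 FPKM, Apex1 with 158, Fen1 with 138, Lig1 at nearly the same level as Parp1, and Parp1 with 129.9 ± 6.84 (SD, n = 3). The lowest was the end joining ligase Lig4 in both cell types, with 1.13 FPKM in LSK and 1.64 in MEP. The median gene had 16.9 FPKM in LSK and 21.6 in MEP. Among WT mice the coefficient of variation of a gene was 8.36% at the median in LSK and 9.15% in MEP, with the highest value, 33.4%, for Lig4 in LSK. The LSK and MEP values come from separate tables whose scaling is not given in the sources used here, so levels were not tested between them.

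Promoter sequences are shown for Parp1 and for 4 genes called in MEP, Apex1, Lig3, Xrcc5 and Xrcc6, each of which holds one of 2 short motifs. RefSeq promoter windows of build GRCm38.p6 matched 34 of the 43 genes, with 38 windows, and the motifs were chosen after the windows had been read. The letters CACGTG (an E-box, the same on both strands) were found in the 250 bases before the start in 15.8% of the 38 windows, those of Apex1, Fen1, Lig3, Parp1, Parp2 and Xrcc5, and in 6.02% of all 32851 windows of the table. The letters TTTCCCGC (an E2F-type site, searched on both strands) were found in 7.89% of the windows of these genes, those of Brca2, Chek2 and Xrcc6, and in 0.895% of all windows. Of 2 GATA-type motifs, searched on both strands, TGATAA was found in 0 of the 38 windows and in 7.94% of all windows, and the other, AGATAA, in 2.63% and 9.99%. Such a match is a description of the letters and not a binding site. Capitals mark the motif, all lines read 5′ to 3′ on the plus strand, and the lines of Apex1, Lig3 and Xrcc6 are limited to 30 bases because annotated exons reach into their upstream windows. The printed bases of Apex1 and Lig3 lie outside these exons, whereas all 30 bases of Xrcc6 lie within one.
Parp1, chr1:180568691-180568890: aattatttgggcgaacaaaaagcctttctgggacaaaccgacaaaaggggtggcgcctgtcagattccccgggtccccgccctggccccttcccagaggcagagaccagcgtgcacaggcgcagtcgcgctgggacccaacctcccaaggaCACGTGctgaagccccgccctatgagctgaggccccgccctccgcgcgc
Apex1, chr14:50924914-50924943: cgctccagaacCACGTGggggcggagccct
Lig3, chr11:82781077-82781106: gaacagcgaccCACGTGgcgaccggagggg
Xrcc5, chr1:72307221-72307420: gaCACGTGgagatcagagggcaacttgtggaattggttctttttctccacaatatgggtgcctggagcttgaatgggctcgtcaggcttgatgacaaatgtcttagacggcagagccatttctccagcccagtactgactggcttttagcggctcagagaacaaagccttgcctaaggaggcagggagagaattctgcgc
Xrcc6, chr15:82016312-82016341: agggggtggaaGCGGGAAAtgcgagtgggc
The motif began 49 bases before the start in Parp1, 24 in Apex1, 21 in Lig3 and 198 in Xrcc5, and 46 bases before it in Xrcc6, where the plus strand shows the reverse complement.

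Parp1 differed more between the Bcor-/-Dnmt3a-/- mice than between genotypes. In LSK it was at 119, 116 and 109 FPKM in the WT mice, at 99.5 and 104 in the Bcor-/- mice, at 117, 102 and 112.3 in the Dnmt3a-/- mice, and at 213 and 80.1 in the double knockouts. In MEP it measured 133, 135 and 122 FPKM in WT mice, then 142.8 and 143.0 in Bcor-/- mice, 148, 143 and 145 in Dnmt3a-/- mice and 171 and 73.0 in double knockout mice. In both cell types the Bcor-/-Dnmt3a-/- replicate 1 was above every WT library and replicate 2, another mouse, below every WT library, so the group means hid 2 opposite values. The log2 fold change against WT, from limma's moderated test over all genes, was 0.19 ± 0.32 (SE; adjusted p = 0.692) in LSK and -0.21 ± 0.28 (adjusted p = 0.589) in MEP. A two-sided exact permutation test of the 2 against 3 libraries gave p = 0.7 in LSK and p = 0.8 in MEP, and cannot give a p below 0.1. With replicate 2 left out, the LSK fold change was 0.89 (adjusted p = 0.000338), and with replicate 1 left out it was -0.51 (adjusted p = 0.00522). In MEP these values were 0.40 (adjusted p = 0.00675) without replicate 2 and -0.82 (adjusted p = 0.000167) without replicate 1. A fit of that kind rests on 1 mouse and assumes that it varies like the other genotypes. Bcor-/- LSK lay below WT by 0.17 ± 0.32 (log2; adjusted p = 0.794), and the Dnmt3a-/- values overlapped those of WT in LSK. In MEP the Bcor-/- and Dnmt3a-/- values of Parp1 lay above those of WT, without passing the test. Apex1, which cuts the abasic sites that glycosylases leave, followed the same order. It was at 129, 124 and 113 FPKM in the WT mice of LSK and at 114 and 42.5 in the double knockouts, and 153, 175 and 146 in WT MEP and 149 and 56.7 in Bcor-/-Dnmt3a-/- MEP. Its log2 fold change was -0.79 ± 0.32 (adjusted p = 0.0908) in LSK and -0.77 ± 0.32 (adjusted p = 0.096) in MEP. Replicate 1 of Apex1 was within the WT range and replicate 2 was below every other library in both cell types.

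**Figure D1:**
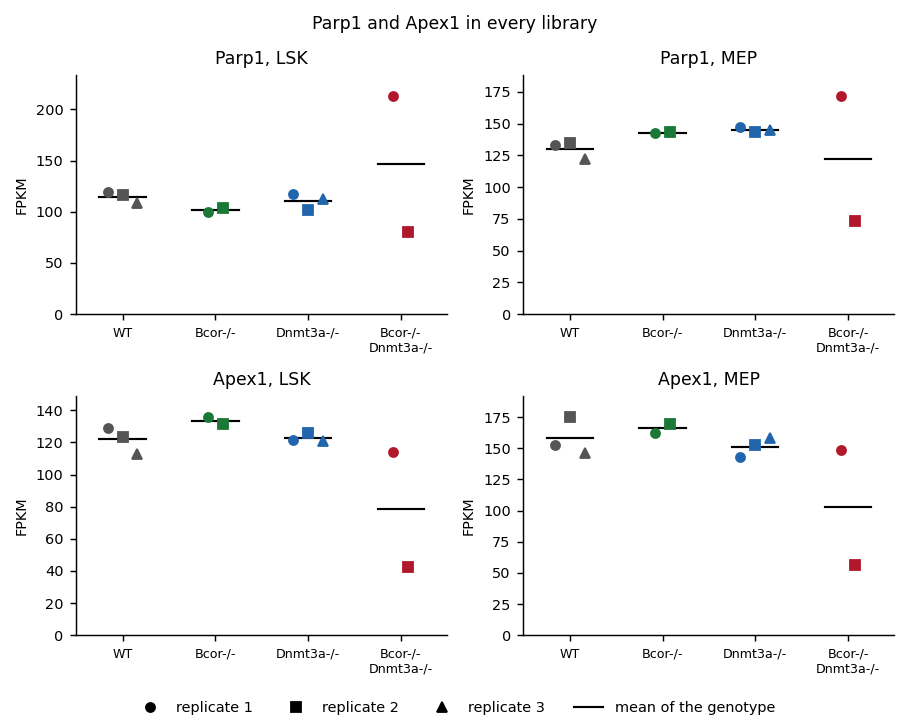
Values of Parp1 and Apex1 (FPKM, linear axis from 0) in each library of LSK and MEP, by genotype, with the symbol giving the replicate and the line the mean. Parp1 had 213 and 80.1 FPKM in the Bcor-/-Dnmt3a-/- LSK libraries and 171 and 73.0 in those of MEP, on either side of the other genotypes.

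Against WT, 2 of the 43 repair genes rose and 4 fell in Bcor-/-Dnmt3a-/- LSK. A gene was called where limma's test of log2(FPKM + 1) gave a fold change above 1.5 with an unadjusted p under 0.05. These were 4.65% and 9.3% of the repair genes, beside 15% of all genes tested called higher and 13.3% called lower, and the shares were not tested against each other. With an adjusted p under 0.05, 3 of the 43 genes were called (background 23.7%). Over the 43 genes the median log2 fold change was -0.28, beside 0.02 over all genes tested, and 28 of them lay below 0. The genes that rose were Lig4 and Ercc5, and those that fell were Xpc, Apex1, Chek1 and Chek2. In a bulk sample, less RNA per cell cannot be told apart from fewer cells that hold it. With a variance of its own for each genotype, which allows for the spread of the Bcor-/-Dnmt3a-/- pair, 5 of the 43 genes were called (background 21%). Without double knockout replicate 1 the counts were 3 higher and 18 lower, beside 20.6% and 19% of all genes. Without replicate 2 the balance turned, with 7 higher and 2 lower, beside 16.7% and 15.5% of all genes, and 3 of the 6 calls were kept.

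**Figure D2:**
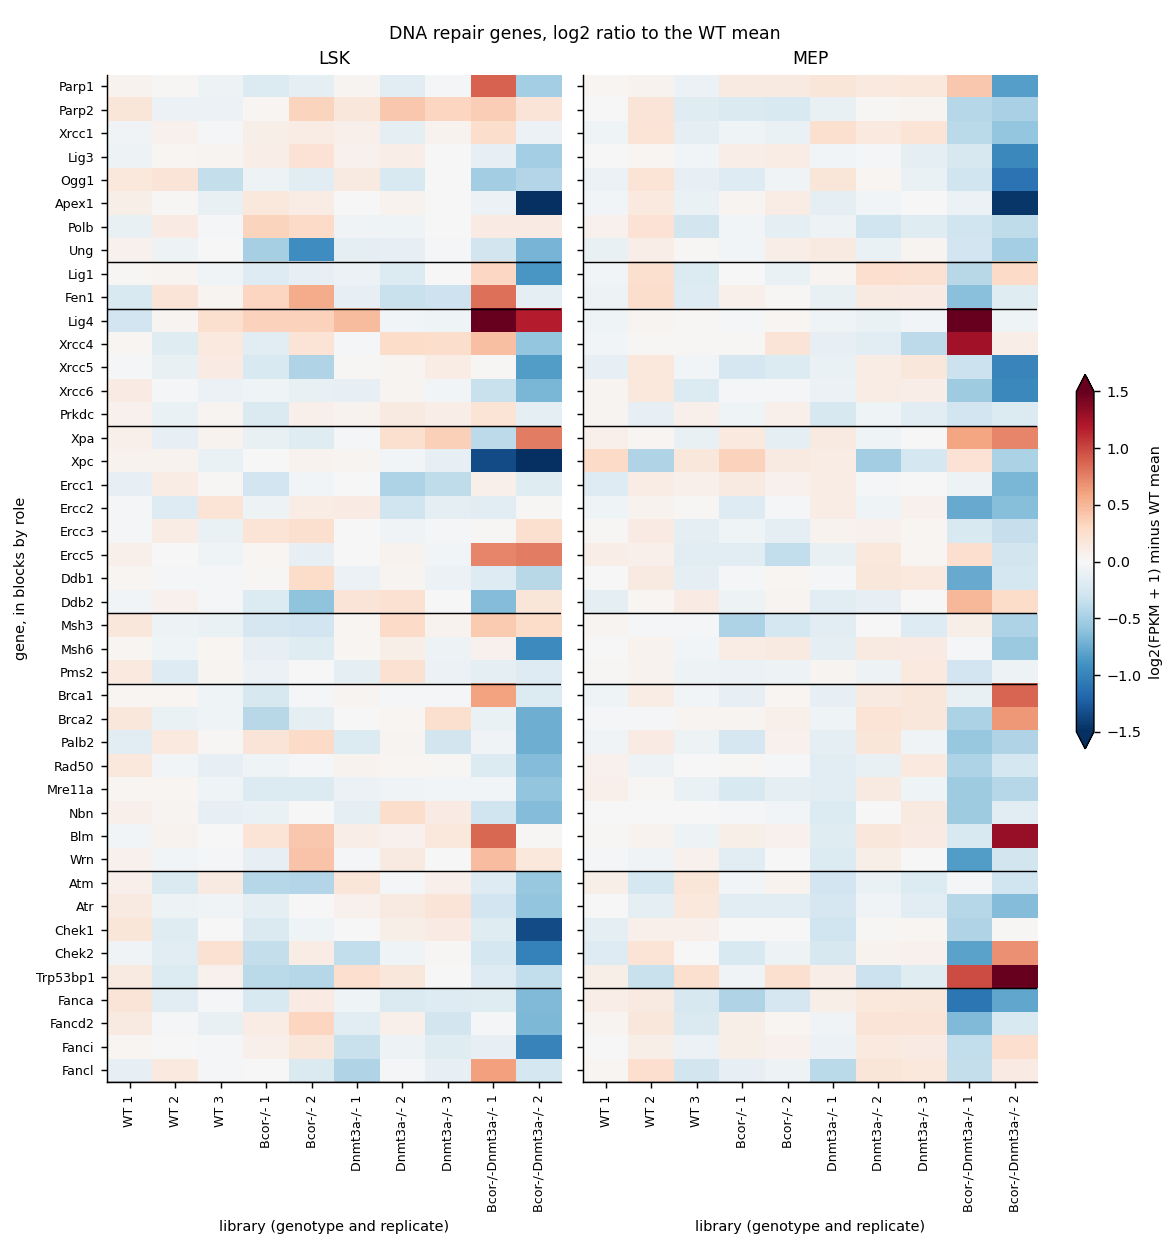
Log2(FPKM + 1) of each repair gene minus its WT mean (color scale from -1.5 to 1.5) in each library of LSK (left) and MEP (right), with black lines between the role groups. The Bcor-/-Dnmt3a-/- columns hold the strongest colors, and the median over the 43 genes was -0.05 and -0.51 in replicates 1 and 2 of LSK and -0.30 and -0.27 in those of MEP.

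Among the genes of nucleotide excision repair, Xpc, which recognizes helix distortions and starts repair outside of transcribed strands, fell in LSK. It stood at 54.6, 54.6 and 49.1 FPKM in WT replicates 1 to 3, while the Bcor-/- libraries gave 52.9 and 54.6, the Dnmt3a-/- libraries 54.2, 51.0 and 48.3 and the double knockout 20.1 and 15.5. Both values of the double knockout lay far below all others. On the log2 scale the difference from WT was -1.52 ± 0.13 (SE; limma, adjusted p = 7.28e-05), and it held with a variance per genotype (adjusted p = 0.00277). In MEP Xpc was low in every genotype, with 13.2, 7.53 and 12.1 FPKM in the WT mice beside 12.6 and 7.4 in the double knockouts, and the groups overlapped. Ercc5, the nuclease that cuts 3′ of the lesion, rose in LSK. It was at 7.26, 6.78 and 6.49 FPKM in the WT mice, at 6.97 and 6.20 in the Bcor-/- mice, at 6.83, 7.14 and 6.59 in the Dnmt3a-/- mice, and at 12.0 and 12.3 in the double knockouts. Here the 2 mice agreed closely. The change from WT came to 0.75 ± 0.13 (log2; adjusted p = 0.00234; 0.115 with a variance per genotype). The other 6 genes of this group, Xpa, Ercc1, Ercc2, Ercc3, Ddb1 and Ddb2, were not called in LSK. Xpa, which binds damaged DNA at the open repair bubble, had 9.95 and 23.4 FPKM in the LSK replicates of Bcor-/-Dnmt3a-/- and 12.2 to 14.1 in WT.

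In end joining, Lig4 rose in LSK from a low level. This ligase, which acts with Xrcc4, measured 0.73, 1.18 and 1.48 FPKM in WT mice, then 1.69 and 1.67 in Bcor-/- mice, 1.94, 1.04 and 1.02 in Dnmt3a-/- mice and 8.73 and 3.78 in double knockout mice. Both double knockout values lay above all others. Relative to WT, its log2 change was 1.69 ± 0.34 (limma, adjusted p = 0.00541; 0.0883 with a variance per genotype). In MEP Lig4 was at 1.53, 1.72 and 1.68 FPKM in the WT mice and at 7.73 and 1.53 in the double knockouts, so that replicate 1 alone was high. Xrcc4, the partner of Lig4, showed the same replicate order, with 17.0 and 7.81 FPKM in Bcor-/-Dnmt3a-/- LSK (WT 10.6 to 13.6) and 15.4 and 6.39 in MEP (WT 5.70 to 5.98). The high replicate 1 is the mouse with the higher sum of B cell markers in both cell types. In LSK replicate 2 was also above WT for this sum (1122 FPKM against 43.3 to 101.8), and its Cd79b was higher than that of replicate 1 (424 against 246 FPKM). The part of these markers in the values was not tested. The kinase subunit Prkdc and the Ku subunits Xrcc5 and Xrcc6 were not called in LSK. Xrcc6 was at 78.3, 70.5 and 67.7 FPKM in the WT mice of LSK and at 57.0 and 44.5 in the double knockouts, a log2 fold change of -0.51 ± 0.13 (adjusted p = 0.0158) below the fold change asked for.

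The checkpoint kinases Chek1 and Chek2 were called lower in LSK by the unadjusted p. Chek1, the kinase downstream of Atr, was at 18.1, 13.8 and 15.8 FPKM in the WT mice and at 13.9 and 5.62 in the double knockouts, so the groups overlapped. In log2 units it differed from WT by -0.76 ± 0.28 (adjusted p = 0.074). Chek2, the kinase downstream of Atm, was at 20.3, 18.5 and 24.7 FPKM in the WT mice and at 17.3 and 9.93 in the double knockouts. Its log2 fold change was -0.64 ± 0.24 (adjusted p = 0.0806). Without replicate 2 neither Chek1, Chek2 nor Apex1 was called, whereas Lig4, Xpc and Ercc5 still were. Chek1, Chek2 and Apex1 had no adjusted p under 0.05 and were chosen after their values had been seen.

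In MEP 3 of the 43 genes rose and 7 fell in Bcor-/-Dnmt3a-/- against WT. Of all genes tested in MEP 18.5% were called higher and 12.4% lower, and 25.2% with an adjusted p under 0.05. The genes that rose were Xpa, Trp53bp1 and Xrcc4, and those that fell were Lig3, Ogg1, Apex1, Ercc2, Fanca, Xrcc5 and Xrcc6. All but Xrcc4 and Apex1 had an adjusted p under 0.05. With the compared genotypes only in limma's model, the adjusted p of those genes ranged from 0.0525 (Ercc2) to 0.183 (Ogg1). With a variance per genotype 6 of the 43 genes were called (background 18.1%), and the count with an adjusted p under 0.05 in that fit was 0 (0.439% of all genes). The median log2 fold change of the 43 genes was -0.29, beside 0.02 over all genes tested, and 35 of them lay below 0. Without double knockout replicate 1 the counts were 6 higher and 11 lower, beside 23.4% and 18.3% of all genes, and without replicate 2 they were 4 higher and 7 lower, beside 21.8% and 14%. With each library centred on its median, which moved the median of all genes to -0.14, they were 1 higher and 15 lower, beside 14.3% and 19.6% of all genes. Apex1 was called in both cell types.

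**Figure D3:**
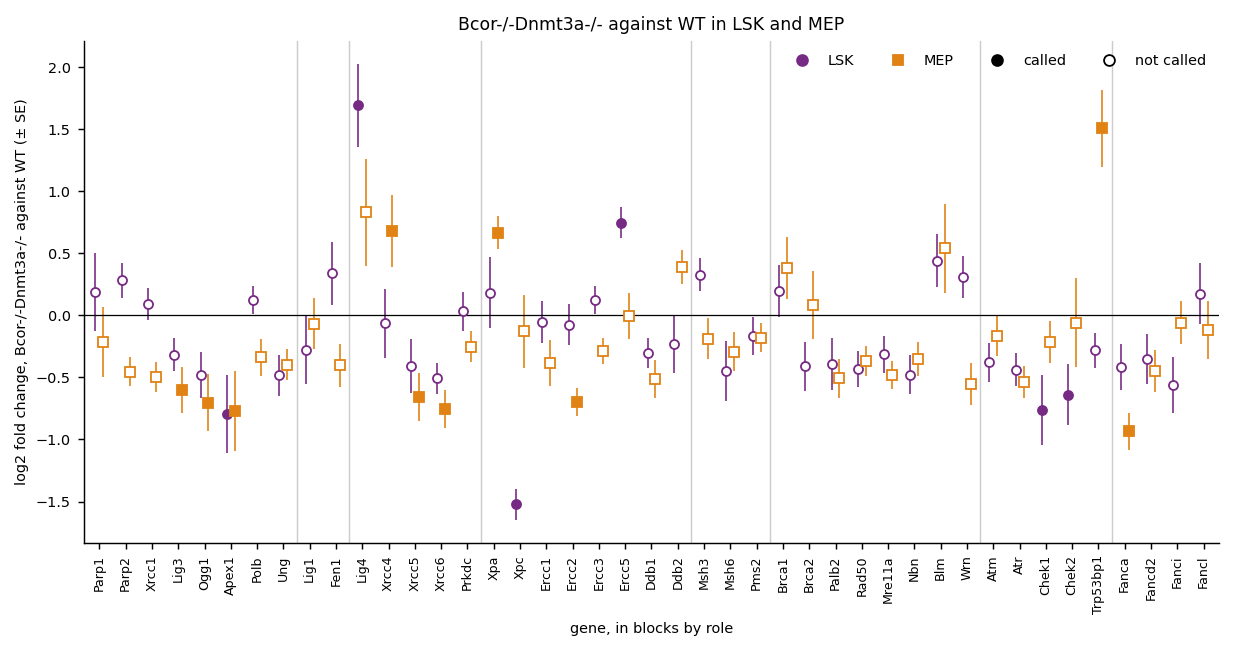
Log2 fold change of Bcor-/-Dnmt3a-/- against WT on the log2(FPKM + 1) scale, with its SE, for each repair gene in LSK (circles) and MEP (squares), with filled symbols for called genes and grey lines between role groups. Xpc lay at -1.52 and Lig4 at 1.69 in LSK, and Trp53bp1 at 1.51 in MEP.

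In MEP all 8 genes of base excision and single-strand break repair lay below WT in mean log2 level, with 3 of them called lower (Lig3, Ogg1 and Apex1), beside 12.4% of all genes, and the median log2 fold change was -0.47. This median was -0.29 in replicate 1, in which Parp1 lay above every WT library, and -0.70 in replicate 2, and without replicate 2 none of Lig3, Ogg1 and Apex1 was called. Lig3, the ligase that works with Xrcc1, stood at 19.8, 20.1 and 19.1 FPKM in WT replicates 1 to 3, while the Bcor-/- libraries gave 21.2 and 21.3, the Dnmt3a-/- libraries 19.1, 19.4 and 17.9 and the double knockout 16.5 and 9.59. On the log2 scale the difference from WT was -0.60 ± 0.19 (adjusted p = 0.0376). Ogg1, the glycosylase for oxidized guanine, was at 11.3, 14.1 and 11.02 FPKM in the WT mice and at 9.63 and 5.04 in the double knockouts, a log2 fold change of -0.70 ± 0.23 (adjusted p = 0.0463). Bcor-/- MEP had 10.4 and 11.6 FPKM of Ogg1, and Dnmt3a-/- MEP 13.9, 12.4 and 11.2. For both genes replicate 2 was the lower one, and without it their log2 fold changes were -0.24 and -0.30. Ogg1 was not called with a variance per genotype either (adjusted p = 0.347). With the compared genotypes only in limma's model, both calls were lost (adjusted p = 0.177 for Lig3 and 0.183 for Ogg1). Parp2 and the scaffold Xrcc1 lay below WT by 0.45 ± 0.12 and 0.50 ± 0.12 on the log2 scale in MEP (adjusted p = 0.0214 and 0.0155), which did not reach the fold change asked for. The exons of Lig3, Ogg1 and Apex1 overlap genes on the other strand (Rffl, Camk1 and Pip4p1) in the GENCODE annotation of GRCm38, and whether the sequencing kept the strand is not given in the sources used here.

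Both Ku genes fell in MEP. Xrcc6 (Ku70) was at 93.4, 101.4 and 78.8 FPKM in the WT mice, at 89.96 and 88.8 in the Bcor-/- mice, at 85.2, 97.8 and 97.5 in the Dnmt3a-/- mice, and at 62.3 and 45.8 in the double knockouts. The change from WT came to -0.75 ± 0.16 (log2; adjusted p = 0.00765). Xrcc5 (Ku80) measured 35.3, 43.2 and 37.4 FPKM in WT mice, then 32.2 and 33.3 in Bcor-/- mice, 35.9, 41.5 and 43.2 in Dnmt3a-/- mice and 30.6 and 18.8 in double knockout mice. Relative to WT, its log2 change was -0.66 ± 0.19 (adjusted p = 0.0303). The double knockout values lay below every other library for both genes. Without replicate 2 neither was called, with log2 fold changes of -0.54 for Xrcc6 and -0.32 for Xrcc5. The call of Xrcc5 was also lost with a variance per genotype (adjusted p = 0.274) and without WT replicate 2 (log2 fold change -0.58). Xrcc4 went the other way in MEP, with 15.4 and 6.39 FPKM against 5.70, 5.93 and 5.98 in WT, and a log2 fold change of 0.68 ± 0.29 (adjusted p = 0.102). Without replicate 1 Xrcc4 was not called.

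Ercc2 and Fanca fell in MEP with similar values in both mice. Ercc2, a helicase of the repair and transcription factor TFIIH, stood at 18.6, 20.2 and 19.9 FPKM in WT replicates 1 to 3, while the Bcor-/- libraries gave 16.9 and 19.4, the Dnmt3a-/- libraries 21.1, 18.6 and 20.4 and the double knockout 11.2 and 12.2. In log2 units it differed from WT by -0.70 ± 0.11 (adjusted p = 0.00272). Fanca, a subunit of the Fanconi anemia core complex, was at 25.0, 25.7 and 19.6 FPKM in the WT mice, at 16.8 and 19.5 in the Bcor-/- mice, at 24.9, 26.1 and 26.3 in the Dnmt3a-/- mice, and at 10.5 and 13.1 in the double knockouts. On the log2 scale the difference from WT was -0.93 ± 0.15 (adjusted p = 0.00276). Both were still called with either double knockout replicate left out. With a variance per genotype in limma's test their unadjusted p were 0.0311 and 0.0183, and their adjusted p were 0.213 and 0.173. Ercc2 overlaps Klc3 and Fanca overlaps Zfp276 on the opposite strand, so reads from either side cannot be told apart without strand. The same holds for Xpa (with Ncbp1), Trp53bp1 (Tubgcp4), Xrcc6 (Desi1) and Xrcc4 (Tmem167), and in all 26 of the 43 genes share exon bases with another gene, 24 of them on the opposite strand.

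Xpa and Trp53bp1 rose in MEP. Xpa measured 10.8, 10.4 and 9.40 FPKM in WT mice, then 11.4 and 9.15 in Bcor-/- mice, 11.3, 9.67 and 10.3 in Dnmt3a-/- mice and 15.9 and 17.7 in double knockout mice. The mice agreed, and the log2 fold change was 0.67 ± 0.14 (adjusted p = 0.00729). It fell to 0.51 with each library centred on its median or quantile normalized, under the fold change asked for, and was not called with a variance per genotype (adjusted p = 0.344). Trp53bp1, which protects broken ends from resection, stood at 6.52, 4.60 and 7.33 FPKM in WT replicates 1 to 3, while the Bcor-/- libraries gave 5.81 and 7.35, the Dnmt3a-/- libraries 6.56, 4.63 and 5.23 and the double knockout 12.9 and 27.9. Both double knockout values lay above every other library. The change from WT came to 1.51 ± 0.31 (log2; adjusted p = 0.00776; 0.181 with a variance per genotype). Without double knockout replicate 1 it was 2.04, and without replicate 2 it was 0.98. In LSK Trp53bp1 was at 18.9, 14.8 and 17.9 FPKM in the WT mice and at 14.9 and 13.0 in the double knockouts. Outside the double knockout, WT replicate 2 and Dnmt3a-/- replicates 2 and 3 of MEP had the lowest values of Trp53bp1 and of Xpc, and also the lowest Cd34 (5.43, 4.46 and 6.08 FPKM, beside 23.9 to 60.6 in the other WT, Bcor-/- and Dnmt3a-/- libraries).

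**Figure D4:**
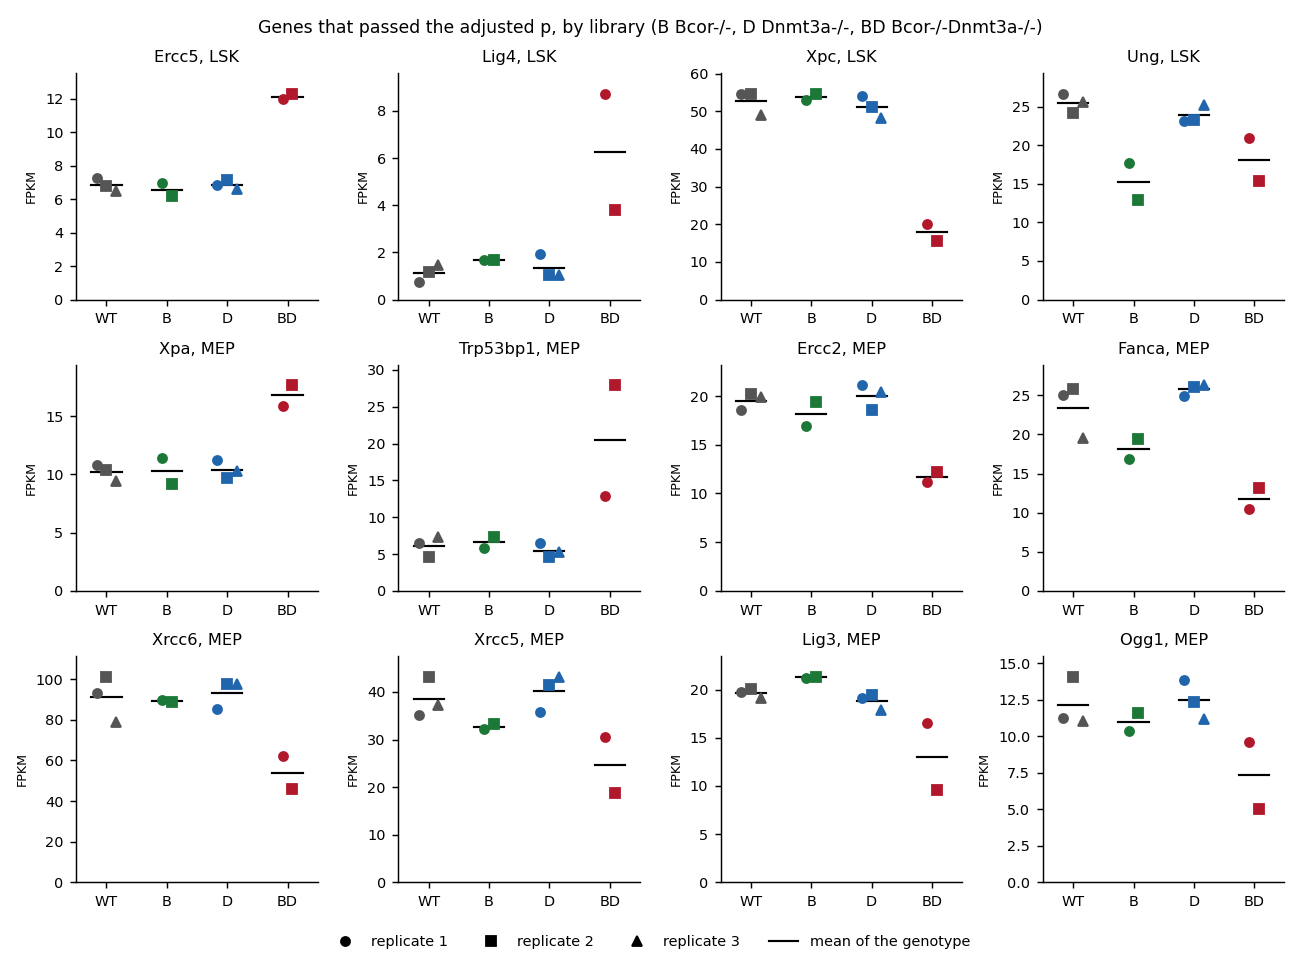
Values (FPKM, linear axes from 0) in each library for the 12 repair genes that were called with an adjusted p under 0.05 and without overlap with WT, in the cell type where they were called, with the symbol giving the replicate and the line the mean. The double knockout differed from WT in 11 panels, and Bcor-/- in that of Ung in LSK.

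The genes of homologous recombination, the MRN complex and the RecQ helicases had no call against WT in either cell type. The count of these 8 genes at an unadjusted p under 0.05 in limma's test was 2 in LSK and 5 in MEP, where 40.8% and 45.3% of all genes passed this limit, as did 18 and 24 of the 43 repair genes. Their median log2 fold changes were -0.35 and -0.36. The MRN genes Rad50, Mre11a and Nbn, which tether and trim broken ends, had log2 fold changes between -0.48 and -0.31 in LSK and between -0.48 and -0.35 in MEP. In LSK these means rested largely on replicate 2, with a median over the 8 genes of -0.04 in replicate 1 and -0.62 in replicate 2, and with Rad50, Mre11a and Nbn at -0.21, -0.04 and -0.30 in replicate 1 and at -0.65, -0.59 and -0.65 in replicate 2. In MEP the median over the 8 genes was -0.51 in replicate 1 and -0.22 in replicate 2. The 3 mismatch repair genes Msh3, Msh6 and Pms2 had no call either, with 1 and 0 at an unadjusted p under 0.05, and exons of Pms2 overlap those of Rsph10b on the same strand. Of the 4 Fanconi anemia genes 0 were called in LSK, with 2 at an unadjusted p under 0.05, and Fanca was the 1 called in MEP. Lig1 and Fen1, which seal and trim the fragments of the lagging strand, were not called in either cell type. Fen1 was at 44.7, 60.3 and 54.2 FPKM in the WT mice of LSK and at 94.3 and 47.4 in the double knockouts.

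The Bcor-/-Dnmt3a-/- replicates differed from each other in ways that changed with the cell type. In LSK 36 of the 43 genes were higher in replicate 1 than in replicate 2, with a median log2 ratio of 0.40, beside -0.01 over all genes tested. The largest ratios were those of Apex1 (1.40), Parp1 (1.40), Lig1 (1.19), Chek1 (1.17) and Xrcc4 (1.03). In the other direction were Xpa (-1.16), Ddb2 (-0.84), Ercc3 (-0.23), Ercc2 (-0.20) and Ogg1 (-0.08). Against the WT mean, 14 genes in LSK and 13 in MEP lay on opposite sides in the 2 replicates. In MEP 21 genes were higher in replicate 1 and 22 in replicate 2. The largest ratios were those of Lig4 (1.79), Apex1 (1.38), Parp1 (1.22), Xrcc4 (1.15) and Ogg1 (0.81). Higher in replicate 2 of MEP were Blm (-1.55), Chek2 (-1.49), Brca2 (-1.13), Trp53bp1 (-1.06) and Brca1 (-0.98).

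Blm, Brca1, Brca2 and Chek2 were thus higher in replicate 1 of LSK and in replicate 2 of MEP. Blm, the RecQ helicase that dissolves crossed-over strands, had 29.1 and 15.7 FPKM in LSK replicates 1 and 2 (WT 15.1 to 16.1), and 31.1 and 92.7 in MEP (WT 34.8 to 38.3). Brca1, which directs ends to recombination, had 18.8 and 10.3 FPKM in LSK (WT 11.5 to 12.4), and 17.7 and 36.0 in MEP (WT 18.3 to 20.9). Brca2, a mediator of homologous recombination, had 10.5 and 6.43 FPKM in LSK (WT 10.5 to 12.9), and 9.19 and 21.3 in MEP (WT 13.0 to 13.6). Chek2 had 15.7 and 45.7 FPKM in MEP (WT 24.3 to 32.4), the reverse of its order in LSK. A list of 35 replication genes outside the 43 moved with them. Of these 34 were higher in replicate 1 than in replicate 2 in LSK, with a median log2 ratio of 0.88, and 28 were higher in replicate 2 in MEP, with a median of -0.36. The part of this list and of the cell mixture in the values of the repair genes was not tested. Across the 43 genes the replicate ratio of LSK and that of MEP had r = 0.04 and rho = -0.05, beside r = 0.56 and rho = 0.39 across all 10773 genes tested in both. These correlations describe genes of the same 2 mice and carry no p.

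**Figure D5:**
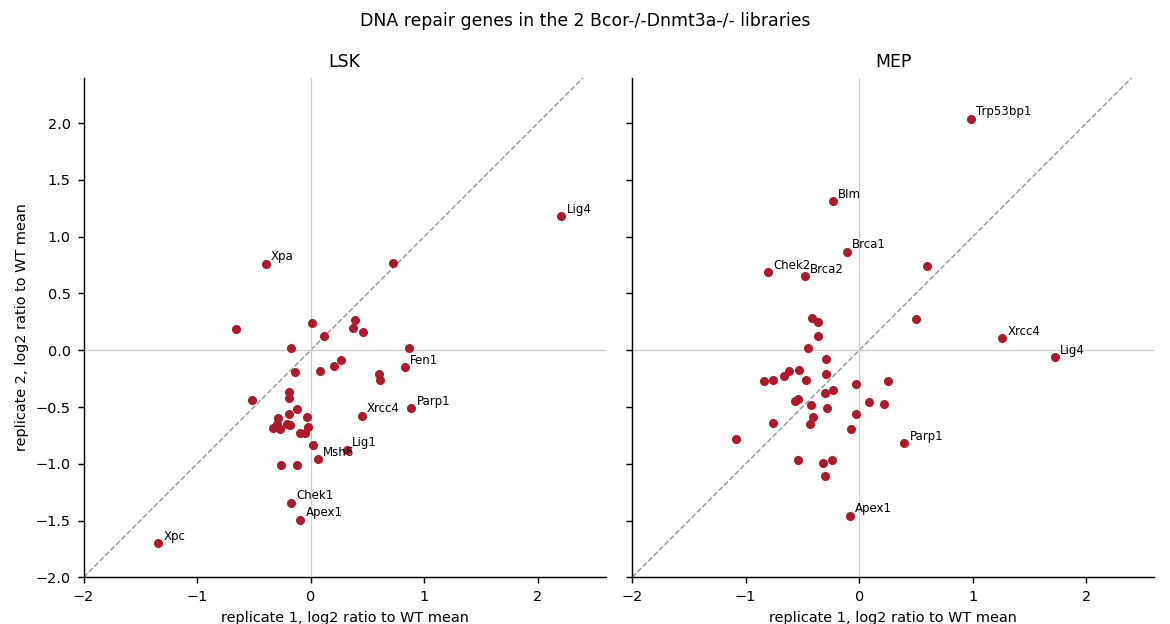
Log2 ratio to the WT mean of each repair gene in Bcor-/-Dnmt3a-/- replicate 1 (horizontal axis) and replicate 2 (vertical axis), for LSK (left) and MEP (right), with the dashed line marking equal values. In LSK 36 of 43 genes lie below the line, whereas in MEP Blm, Chek2 and Brca2 lie above it and Lig4, Apex1 and Parp1 below it.

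The effect of the double knockout differed between LSK and MEP for 9 of the 43 genes. This was tested on the difference between the LSK and MEP log2 value of each mouse, and of all 10773 genes 20% had an adjusted p under 0.05. Trp53bp1, with log2 fold changes of -0.28 in LSK and 1.51 in MEP, differed by -1.79 ± 0.33 (limma, adjusted p = 0.00982). Xpc differed by -1.40 ± 0.34 (adjusted p = 0.0231), and Xrcc4 by -0.75 ± 0.21 (adjusted p = 0.0366). Higher in LSK than in MEP were the effects on Wrn (difference 0.86 ± 0.25, adjusted p = 0.0388), Lig4 (0.86 ± 0.25, adjusted p = 0.0421), Ercc5 (0.75 ± 0.18, adjusted p = 0.0219), Parp2 (0.74 ± 0.17, adjusted p = 0.021), Ercc2 (0.62 ± 0.16, adjusted p = 0.0293) and Xrcc1 (0.59 ± 0.14, adjusted p = 0.0219). Parp1 differed by 0.40 ± 0.13 (adjusted p = 0.056). With a variance per genotype the count was 0 of the 43 and 0% of all genes had an adjusted p under 0.05, and without WT replicate 1 or WT replicate 2 it was 2 and 1, beside 5.69% and 5.95% of all genes. Without double knockout replicate 1 or 2 it was 19 and 22, beside 35.3% and 34.7% of all genes.

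In mice labelled Bcor-/-, 1 repair gene passed the test in LSK. In Bcor-/- LSK 0 of 43 genes were called higher (background 7.2%) and 1 lower (background 6.03%), the same gene with an adjusted p under 0.05 (background 5.77%). This was Ung, the glycosylase that removes uracil from DNA, which was at 26.7, 24.2 and 25.6 FPKM in the WT mice, at 17.7 and 12.9 in the Bcor-/- mice, at 23.2, 23.3 and 25.3 in the Dnmt3a-/- mice, and at 20.9 and 15.4 in the double knockouts. Both Bcor-/- values lay below all WT and Dnmt3a-/- values. Relative to WT, its log2 change was -0.72 ± 0.16 (limma, adjusted p = 0.0362), and without Bcor-/- replicate 2 Ung was not called (log2 fold change -0.50, adjusted p = 0.339). The myeloid marker Mpo was 4710 and 8426 FPKM in the same Bcor-/- libraries, against 785 to 1532 in WT. Of 11 granulocyte and monocyte markers 5 lay above every WT library in both Bcor-/- libraries, whereas S100a8, S100a9, Camp and Lyz2 lay inside the WT range. The summed FPKM of the 9 LSK markers was 853 and 577 in these libraries against 1119 to 1308 in WT, with 7 of 9 below every WT library. The part of these markers in the Ung values was not tested. In Bcor-/- MEP Ung had 24.2 and 26.8 FPKM against 22.9, 26.7 and 25.1 in WT, and the Bcor-/- effect on Ung differed between LSK and MEP by -0.75 ± 0.20 (unadjusted p = 0.00353 and adjusted p = 0.116 in limma's fit). In Bcor-/- MEP 0 of the 43 genes were called by limma's test (background 1.23% higher and 1.53% lower, and 0.064% with an adjusted p under 0.05), with Fanca the 1 gene at an unadjusted p under 0.05.

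In Dnmt3a-/- cells 0 of the 43 genes were called in either cell type by limma's test. The background was 0.209% higher and 0.234% lower in LSK, 0.201% higher and 0.21% lower in MEP, and 0% with an adjusted p under 0.05 in both. At an unadjusted p under 0.05 there was 1 gene in LSK, Parp2, with 41.0, 34.0 and 33.9 FPKM in WT and 40.6, 48.3 and 45.3 in Dnmt3a-/-, which overlapped, and 0 in MEP. The log2 fold changes of the 43 genes lay between -0.28 and 0.30 in LSK and between -0.23 and 0.20 in MEP.

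Of 87 other genes of the repair pathways, 85 could be tested in LSK, of which 6 were called higher and 4 lower in Bcor-/-Dnmt3a-/-, and 86 in MEP, of which 7 were called higher and 8 lower. These are 11.8% of the list in LSK and 17.4% in MEP, beside 28.3% and 30.9% of all genes called in either direction, and the shares were not tested against each other. The largest rise with an adjusted p under 0.05 in LSK was that of the glycosylase Neil1, with a log2 fold change of 1.71 ± 0.26 (adjusted p = 0.00141). It was followed by Dclre1c (Artemis, which opens hairpins in end joining and acts with Prkdc and Lig4) with 1.57 ± 0.13 (adjusted p = 6.71e-05), at 17.2 and 19.3 FPKM against 5.31 to 5.63 in WT. Among the genes that fell in LSK was Rmi2, a partner of Blm, with -1.13 ± 0.27 (adjusted p = 0.0135). In MEP Nthl1, the glycosylase for oxidized pyrimidines, fell to 2.35 and 2.47 FPKM against 7.27 to 8.04 in WT, with a log2 fold change of -1.33 ± 0.14 (adjusted p = 0.000608). Gtf2h4, a subunit of TFIIH as Ercc2 is, fell by 1.09 ± 0.18 on the log2 scale (adjusted p = 0.00306). Neil1 rose in MEP as well, by 1.36 ± 0.34 (adjusted p = 0.0176).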

How the data were processed

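RNA of LSK and MEP was measured in 10 libraries each, and the authors deposited FPKM per gene and library, made per the submitters' processing notes with STAR 2.5.1b, SAMtools 1.9 and Cufflinks 2.2.1 on mm9. The annotation, the strand setting and the scaling between libraries are not given in the sources used here. Read counts were not used, so precision rests on the mice. The repair genes, role groups and marker lists were chosen with earlier results of these data known.

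Analyzed were genes averaging 1 FPKM or more, as log2(FPKM + 1), on which scale every fold change is given; it understates changes of low genes such as Lig4. All 4 genotypes of a cell type entered 1 limma 3.58.1 model (R 4.3.3) with a mean-variance trend, and p-values were adjusted by Benjamini-Hochberg over all tested genes. The procedure was run on simulated data in which the double knockout libraries had the spread of the other genotypes. That run cannot speak for the calls in the real Bcor-/-Dnmt3a-/- pair, whose spread was wider. The thresholds (unadjusted p under 0.05, fold change above 1.5) are those of the study's methods. Parp1 is given in every library; other genes are given in full where called, with an adjusted p below 0.05 and libraries that did not overlap WT (at most 8 per direction for Bcor-/-Dnmt3a-/-, 4 for Bcor-/- and 3 for Dnmt3a-/-), and up to 5 per direction by the ratio of the Bcor-/-Dnmt3a-/- replicates. Alternatives were another pseudocount, filter, scaling, variance model, threshold, block and leaving out each library. The plots were made in matplotlib 3.10.9 under Python 3.11.15. Some genes of the list of other repair genes are not reported here by name.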

Additional observations from a re-analysis of the deposited data

Results flagged for a closer look

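The effect of Bcor-/-Dnmt3a-/- against WT differed between LSK and MEP, by a test of the difference itself, for Parp2 (LSK minus MEP 0.74 on the log2 scale), Xrcc1 (0.59), Lig4 (0.86), Xpc (-1.40), Ercc2 (0.62), Ercc5 (0.75), Wrn (0.86), Xrcc4 (-0.75) and Trp53bp1 (-1.79). Wrn, a RecQ helicase with an exonuclease domain, was at 15.8, 14.5 and 14.6 FPKM in WT LSK and at 21.0 and 16.8 in the double knockout, whereas in MEP WT held 39.3, 38.1 and 41.6 FPKM and the double knockout 21.7 and 32.6. Parp2, the closest relative of Parp1 among these genes, had 47.0 and 41.6 FPKM in Bcor-/-Dnmt3a-/- LSK and 40.3 and 38.6 in MEP, against 41.0, 34.0 and 33.9 and 54.2, 62.1 and 47.7 in WT. Xrcc1 had 38.6 and 30.1 FPKM in Bcor-/-Dnmt3a-/- LSK and 25.5 and 22.4 in MEP, against 30.8, 33.6 and 31.6 and 32.5, 39.5 and 31.0 in WT.
These 9 genes are 20.9% of the 43, beside 20% of all genes tested, and without WT replicate 1 or 2 the count was 2 or 1. With a variance of its own for each genotype, 0 of these 9 differences kept an adjusted p under 0.05 in limma's test.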

How the results depend on the processing

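The counts of repair genes called in Dnmt3a-/- LSK, Dnmt3a-/- MEP and Bcor-/- MEP were 0 under all 21 alternatives. In Bcor-/- LSK the count of 1 became 0 with a fold change above 2, and ranged from 0 to 1 with 1 library left out (0 without Bcor-/- replicate 2). In Bcor-/-Dnmt3a-/- LSK the count of 6 became 3 with the compared genotypes only, 3 with the adjusted p and 2 with a fold change above 2, and ranged from 4 to 21 with 1 library left out. The highest was 21 (3 higher, 18 lower, beside 39.6% of all genes) without Bcor-/-Dnmt3a-/- replicate 1. In Bcor-/-Dnmt3a-/- MEP the count of 10 became 16 (1 higher, 15 lower, beside 14.3% and 19.6% of all genes) with median centring, which moved the median of all genes to -0.14. It became 6 with the compared genotypes only, 6 with a variance per genotype (background 18.1%) and 1 with a fold change above 2. It was 14 (1 higher, 13 lower) with quantile normalization, which moved that median to -0.17, and ranged from 8 to 17 with 1 library left out (17 without Bcor-/-Dnmt3a-/- replicate 1). The 9 genes whose effect differed between LSK and MEP became 0 with a variance per genotype, and between 1 and 22 with 1 mouse left out, 1 and 2 being the counts without WT replicates 2 and 1, and 19 and 22 those without Bcor-/-Dnmt3a-/- replicates 1 and 2. The log2 fold change of Parp1 reversed to -0.51 in LSK without Bcor-/-Dnmt3a-/- replicate 1 (0.89 without replicate 2) and to 0.40 in MEP without replicate 2 (-0.82 without replicate 1), whereas the 12 genes called with an adjusted p under 0.05 kept their direction under the alternatives run. For the other genes only the leaving out of a double knockout replicate can be read, since 14 genes in LSK and 13 in MEP, Parp1 among both, lay on opposite sides of WT in the 2 replicates. With the adjusted p in Bcor-/-Dnmt3a-/- LSK the share of all genes called was 23.7%. Where no share of all genes stands beside a count, its change cannot be read as one of the repair genes alone. The cause of these changes was not tested beyond the samples and thresholds each alternative removes.

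The labels do not say that a replicate number marks a shared litter, batch or day, and samples were taken as paired only if every same-numbered pair deviated together with a correlation over 0.1. This held for 0 of 13 pairs in LSK and for 8 of 13 in MEP (-0.19 to 0.34), so samples were not taken as paired. Pairs of unlike number also deviated together in MEP, with 0.31 for WT replicate 3 and Dnmt3a-/- replicate 1. These values therefore do not tie a shared deviation to the number. In groups of 2 libraries the deviations mirror each other, so the pairs are not independent. With the replicate block, 5 genes were called in Bcor-/-Dnmt3a-/- LSK, 8 in Bcor-/-Dnmt3a-/- MEP, 1 in Bcor-/- LSK and 0 in the other 3 comparisons. These counts stand without the share of all genes and cannot be read as changes of the repair genes alone. In limma's fit with the block the adjusted p lay above 0.05 for Lig3 (0.0603), Ogg1 (0.0656) and Xrcc5 (0.0787) in MEP and for Ung (0.0587) in Bcor-/- LSK. The Bcor-/-Dnmt3a-/- and Bcor-/- groups have 2 libraries each, and the depth of each library was only estimated, relative to the others.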
